A study of Mus musculus with 11 samples.

Results

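The genes of cGAS-STING signalling and of the handling of its messenger cGAMP were read in primary lung fibroblasts of mice. They are 9 of the 56980 Ensembl genes counted and were chosen by name, for their place in this pathway: Cgas, Sting1, Tbk1, Ikbke, Irf3, Enpp1, Slc19a1, Lrrc8a and Abcc1. Of the 11 RNA libraries, 6 came from cGAS KO mice (3 females and 3 males) and 5 from wild-type (WT) mice (2 females and 3 males), and each library is a separate animal, per the series' design text. Cells of both genotypes grew in DMEM/F12 with 15% serum, under 5% O2 and 5% CO2 at 37 °C. Libraries were made from total RNA after removal of ribosomal RNA. The labels give no strain, age or targeted exon, and they name no treatment for either genotype. Their extraction text speaks of pulverized tissue although the samples are labelled as cultured cells.

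cGAS binds DNA in the cytosol and makes the cyclic dinucleotide cGAMP. cGAMP binds STING on the endoplasmic reticulum, STING moves to the Golgi and recruits the kinases TBK1 and IKKε, and these phosphorylate the transcription factor IRF3, which enters the nucleus and switches on type I interferon and other genes. cGAMP also leaves cells, is cut outside them by the hydrolase ENPP1 and enters other cells through membrane transporters and channels. Much of this route is controlled through protein modification and movement, which RNA counts do not show.

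Promoter sequences are shown for the sensor Cgas, the one gene here that passed the test, and for the related kinases Tbk1 and Ikbke, whose promoters differ in base composition. Each is the 250 bases before the RefSeq start in build GRCm38.p6, 5′ to 3′ on the minus strand, with each CpG dinucleotide in capitals.
Cgas (chr9:78443238-78443487): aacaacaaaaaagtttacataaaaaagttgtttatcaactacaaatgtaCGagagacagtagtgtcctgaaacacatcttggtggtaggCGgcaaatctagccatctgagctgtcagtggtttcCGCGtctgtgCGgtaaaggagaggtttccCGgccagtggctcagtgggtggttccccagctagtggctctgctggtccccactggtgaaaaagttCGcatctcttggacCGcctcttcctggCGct
Tbk1 (chr10:121586795-121587044): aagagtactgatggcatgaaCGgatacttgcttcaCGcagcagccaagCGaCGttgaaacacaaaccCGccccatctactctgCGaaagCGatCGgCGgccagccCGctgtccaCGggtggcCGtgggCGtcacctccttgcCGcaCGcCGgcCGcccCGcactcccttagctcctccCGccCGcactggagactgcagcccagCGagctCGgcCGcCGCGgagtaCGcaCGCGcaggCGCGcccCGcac
Ikbke (chr1:131279564-131279813): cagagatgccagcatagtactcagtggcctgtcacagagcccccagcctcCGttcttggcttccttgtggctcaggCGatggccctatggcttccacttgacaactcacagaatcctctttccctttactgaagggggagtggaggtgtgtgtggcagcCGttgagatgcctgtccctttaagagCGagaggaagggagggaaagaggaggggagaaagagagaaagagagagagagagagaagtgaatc
These stretches hold 9 CpG in Cgas, 31 in Tbk1 and 4 in Ikbke.

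Promoter windows reaching from 250 bases before to 50 bases after the start were read for 7 of the 9 genes. None was read for Sting1 or Abcc1, so the statements below do not cover them. Over that window Tbk1 had 37 CpG, Lrrc8a 32, Enpp1 22, Irf3 18, Cgas 16 and Ikbke 4, while the windows of Slc19a1, which has 2 listed starts, had 19 and 21. The median over 32851 mouse promoters of this length was 7 CpG (quartiles 3 and 20), so Ikbke alone among these 7 genes lay under the median. The GC box GGGCGG, searched on both strands, was present for 5 of the 7 genes (Tbk1, Irf3, Enpp1, Slc19a1 and Lrrc8a) and in 35.7% of all promoters. The TATA box TATAAA, searched the same way, was in 13.6% of all promoters and in none of these 7 genes' windows. These matches describe letters and not binding.

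The libraries held 27261958 to 48039328 counts, and a count of 0 allows up to 0.0624 to 0.110 CPM (3 counts over the unscaled library total), for counting error only. All other CPM values are counts over TMM-scaled library size, computed here. WT female 2 stood apart: its median correlation with the other libraries was 0.960, and it was the lowest library for 28.8% and the highest for 25.4% of the 22298 entries tested. Fibroblast markers were present: their 12 genes summed to 37902 to 52235 CPM in KO and 40820 to 54369 CPM in WT. Among them were the type I collagen chains Col1a1 (10984 to 15790 CPM in KO, 12762 to 17250 CPM in WT) and Col1a2 (6266 to 8556 CPM in KO, 7293 to 9556 CPM in WT). Lum (2.67 to 6.27 CPM in KO, 0.485 to 3.58 CPM in WT) and Tcf21 (4.14 to 5.49 CPM in KO, 3.41 to 5.55 CPM in WT) were low. Over both sexes 6 of the 12 had a positive fold change. Leukocyte and macrophage markers were also present: their 20 genes summed to 8259 to 14098 CPM in KO and 5850 to 8595 CPM in WT. The pan-leukocyte gene Ptprc had 128 to 231 CPM in KO and 90.3 to 140 CPM in WT, and the macrophage gene Cd68 had 454 to 904 CPM in KO and 364 to 527 CPM in WT. The neutrophil marker Ly6g was at 0 in every library. The lymphocyte markers Cd3e and Ms4a1 were at or near 0, reaching 0.053 CPM. Epithelial markers summed to 10.3 to 36.3 CPM in KO and 22.1 to 54.1 CPM in WT. Over both sexes all 7 tested ones had a negative fold change (median -0.90 on the log2 scale). Their median was -1.41 in males and 0.44 in females, where 4 of the 7 were positive, against 53.8% of all entries. Endothelial markers summed to 54.2 to 104 CPM in KO and 39.2 to 88.9 CPM in WT. Most of that sum was Vwf and Kdr, and over both sexes 5 of the 8 markers went the other way. The median log2 fold change was -0.93 over both sexes and -1.97 in males. In females it was 0.36, and 7 of the 8 were positive, against 53.8% of all entries. In males 7 of 8 had an unadjusted edgeR p under 0.05, against 22.1% of all entries, and none was called. In such bulk libraries fewer cells of a type and less RNA per cell cannot be told apart.

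Differences of KO and WT over both sexes were tested with sex in the model. Of the 9 genes, all of which passed the low-count filter, 1 passed edgeR's quasi-likelihood test at an adjusted p under 0.05. It was Cgas, which is also the only one called among all 22298 entries (0.00448% called). Its call checks the labels and is not a response of the pathway. Of the other 8 genes 4 lay higher and 4 lower in KO libraries, with fold changes from -0.26 to 0.48 on the log2 scale. Their median was 0.10, against -0.0087 over all entries. An unadjusted p under 0.05 was reached by 4 of these 8 genes and by 17.2% of all entries.

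Cgas (ENSMUSG00000032344), the DNA sensor and the targeted gene, had 1.63, 2.14 and 1.91 CPM in KO females and 2.27, 2.23 and 2.25 CPM in KO males. It had 6.99 and 9.85 CPM in WT females and 9.78, 8.72 and 5.89 CPM in WT males. Every KO library lay below every WT library, a pattern found for 0.354% of entries. It was the only one of the 9 genes without overlap over both sexes, where 1.36% of entries had none in either direction. The mean was 2.07 ± 0.25 CPM across the 6 KO animals and 8.24 ± 1.75 CPM across the 5 WT animals (± SD). In edgeR this log2 fold change was -1.98 with an SE of 0.15 and an adjusted p of 0.000954. Its transcript was still counted in each KO library, at 52 to 111 reads. Because the labels name no deleted exon and counts are per gene, these reads could not be assigned to a part of the transcript. With the mean log2 CPM of the leukocyte markers as a covariate the log2 fold change was -1.90 and its adjusted p was 0.182, and with a replicate block within each sex it was -1.95 with an adjusted p of 0.0715.

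**Figure D1:**
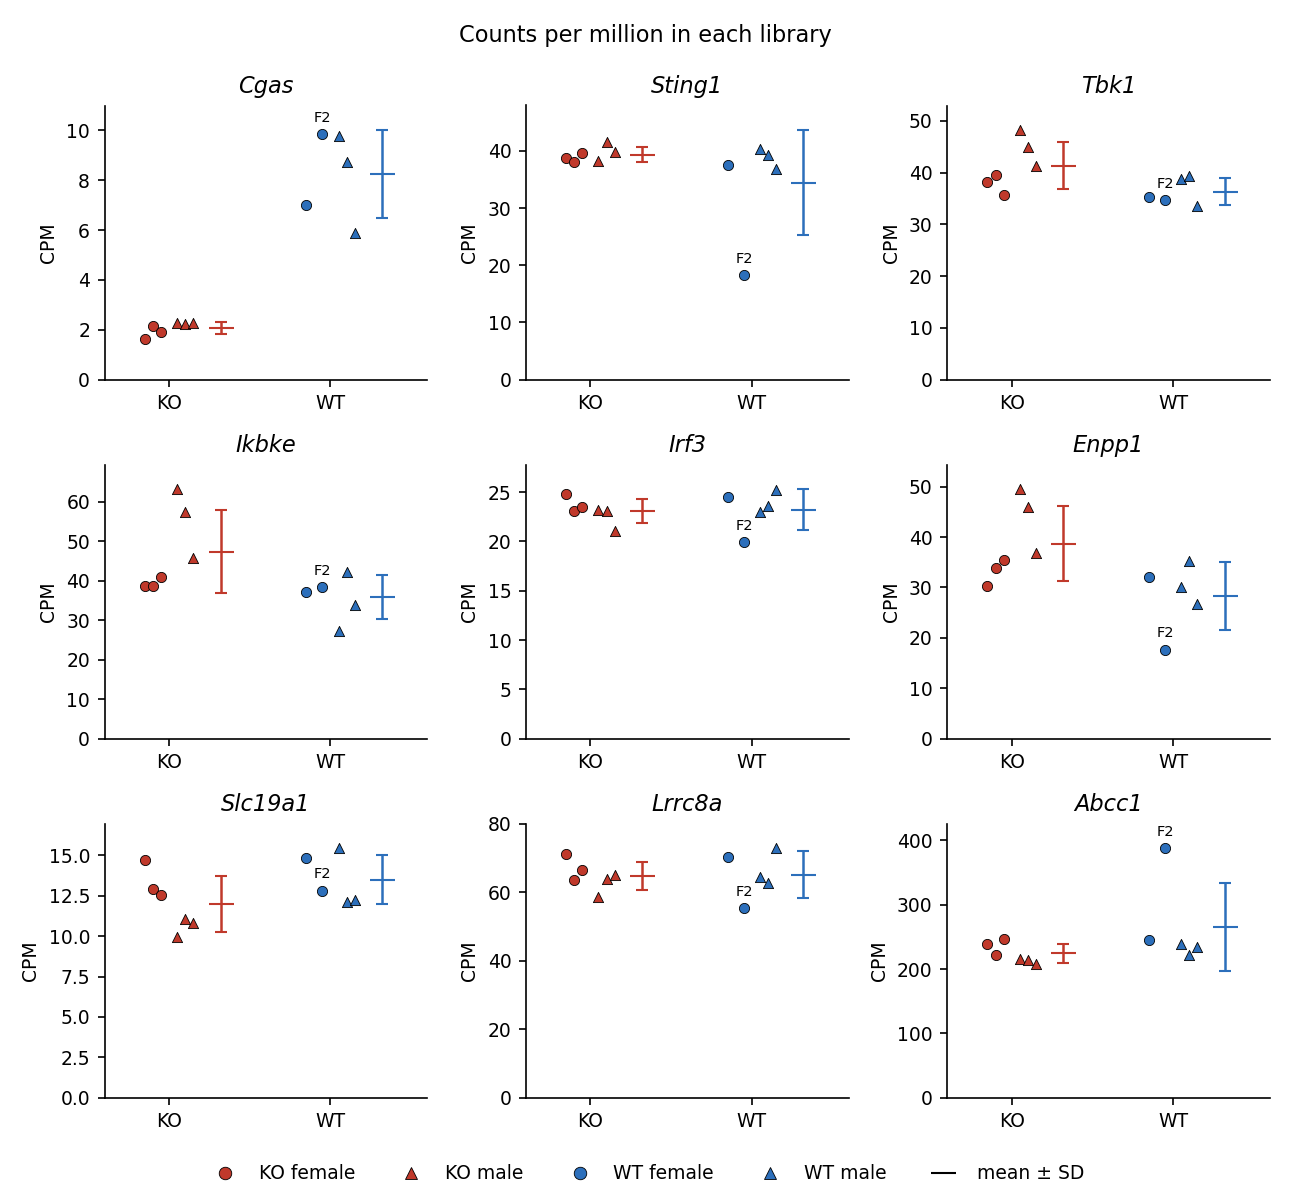
Level of each of the 9 genes in every library, in CPM on axes that start at 0, KO left and WT right, with circles for females, triangles for males, a mean with ± SD beside each genotype and F2 marking WT female 2. Cgas lies at 1.63 to 2.27 CPM in KO and 5.89 to 9.85 CPM in WT, and the other 8 genes overlap between genotypes.

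Sting1 (ENSMUSG00000024349) encodes the adaptor that binds cGAMP. It had 38.7, 38.1 and 39.6 CPM in KO females and 38.3, 41.6 and 39.7 CPM in KO males, against 37.5 and 18.3 CPM in WT females and 40.3, 39.3 and 36.8 CPM in WT males. Apart from WT female 2 at 18.3 CPM, every library lay between 36.8 and 41.6 CPM. The fold change of 0.23 on the log2 scale (edgeR, SE 0.16, adjusted p = 0.465) did not pass the test, and without WT female 2 it was 0.05 with an adjusted p of 0.642.

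Tbk1 (ENSMUSG00000020115) encodes the kinase that phosphorylates STING and IRF3. It had 38.2, 39.5 and 35.7 CPM in KO females and 48.2, 44.9 and 41.3 CPM in KO males. The values were 35.2 and 34.7 CPM in WT females and 38.8, 39.4 and 33.6 CPM in WT males. The 3 KO males were the highest libraries, while KO females overlapped WT males. The fold change over both sexes was 0.20 on the log2 scale (edgeR, SE 0.07, adjusted p = 0.211).

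Ikbke (ENSMUSG00000042349) encodes IKKε, the kinase related to TBK1. It had 38.6, 38.7 and 40.9 CPM in KO females and 63.2, 57.4 and 45.8 CPM in KO males, against 37.2 and 38.4 CPM in WT females and 27.4, 42.2 and 34.0 CPM in WT males. KO males again held the 3 highest values, while KO and WT females together spanned only 37.2 to 40.9 CPM. The fold change over both sexes was 0.40 on the log2 scale (edgeR, SE 0.15, adjusted p = 0.209). Per length, in TPM, the ratio of Ikbke to Tbk1 ran from 0.424 to 0.569 in KO and from 0.306 to 0.480 in WT libraries.

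Irf3 (ENSMUSG00000003184), the transcription factor that these kinases phosphorylate, had 24.8, 23.1 and 23.5 CPM in KO females and 23.2, 23.0 and 21.0 CPM in KO males, against 24.5 and 19.9 CPM in WT females and 23.0, 23.6 and 25.2 CPM in WT males. The fold change was -0.0073 on the log2 scale (edgeR, SE 0.08, adjusted p = 0.972), and the genotypes overlapped throughout.

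Enpp1 (ENSMUSG00000037370) encodes the ectoenzyme that hydrolyses cGAMP outside the cell. It had 30.3, 33.9 and 35.5 CPM in KO females and 49.4, 46.0 and 36.9 CPM in KO males. The values were 32.1 and 17.6 CPM in WT females and 30.0, 35.3 and 26.7 CPM in WT males. WT female 2 was the lowest library and 3 KO males were the highest. The fold change of 0.48 on the log2 scale was the largest positive one of the 9 (edgeR, SE 0.15, adjusted p = 0.176). It was 0.65 without WT female 1 and 0.37 without WT female 2, fits that each leave a lone WT female. It passed with limma-voom sample weights (0.36, adjusted p = 0.0364), which called 2779 of all entries over both sexes. With the leukocyte covariate it was 0.06 (edgeR adjusted p = 0.992).

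**Figure D2:**
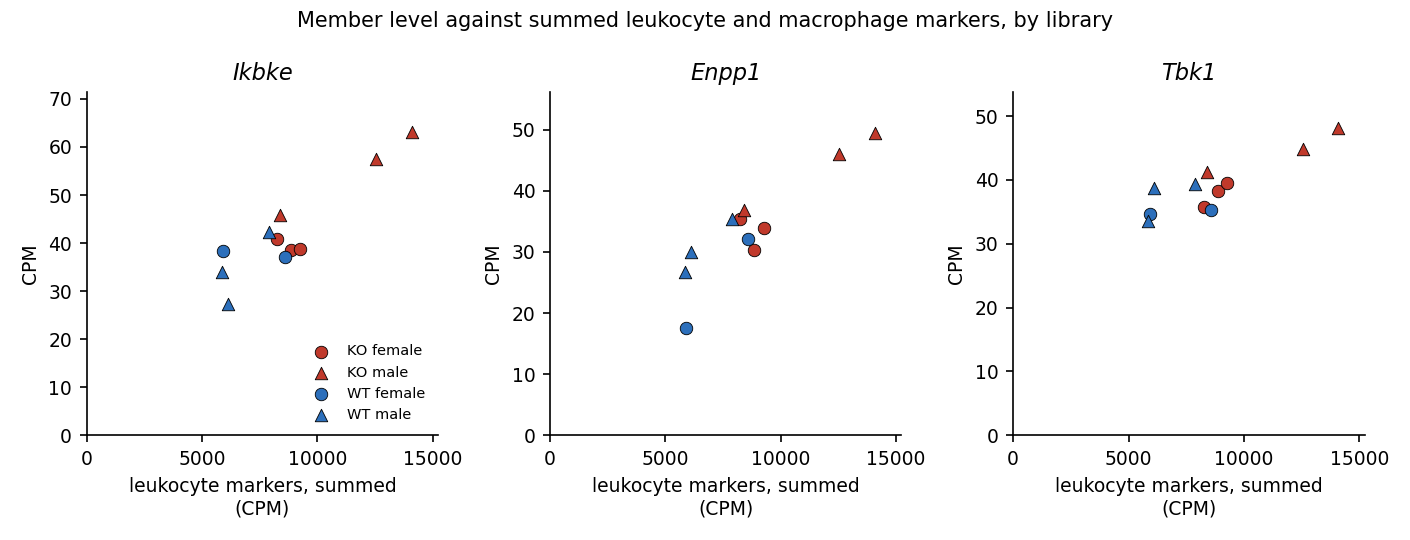
Level of Ikbke, Enpp1 and Tbk1 in each library (vertical axis, CPM) against the summed level of 20 leukocyte and macrophage markers (horizontal axis, CPM), with KO in red, WT in blue, circles for females and triangles for males. KO males 1 and 2 lie at the upper right in each panel, and their marker sums are 14098 and 12542 CPM.

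KO males 1 and 2, the highest libraries for Ikbke, Enpp1 and Tbk1, also had the highest leukocyte marker sums. KO males 1, 2 and 3 had marker sums of 14098, 12542 and 8393 CPM, and KO females 8858, 9257 and 8259 CPM. WT females had 8595 and 5918 CPM, and WT males 6115, 7888 and 5850 CPM. Of the 20 markers 16 were tested, and 15 of these had a positive fold change, against 48.5% of all entries. Their median was 0.52 on the log2 scale. Over both sexes edgeR called none, and 11 had an unadjusted p under 0.05, against 17.2% of all entries. In males their median was 0.82, and the macrophage genes Cd68, Adgre1 and Fcer1g rose (edgeR adjusted p = 0.0478 each). So 3 of 16 were called, where 0.719% of all entries were called higher in males. With the marker score as a covariate the fold changes were 0.26 for Ikbke and 0.07 for Tbk1 (edgeR adjusted p = 0.992 each), against 0.40 and 0.20 without it. That score, the mean log2 CPM of the markers, ran from 4.74 to 5.29 in KO and from 4.24 to 4.89 in WT libraries. It thus goes partly with genotype, and a fit with both cannot fully tell them apart. With it 0 of all entries were called over both sexes, and Cgas was not called either.

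Slc19a1 (ENSMUSG00000001436) encodes the reduced folate carrier, which imports cGAMP in human cells. It had 14.7, 12.9 and 12.5 CPM in KO females and 9.97, 11.1 and 10.8 CPM in KO males, against 14.8 and 12.8 CPM in WT females and 15.4, 12.1 and 12.3 CPM in WT males. The KO males were the 3 lowest libraries, and KO females overlapped both WT groups. The fold change was -0.20 on the log2 scale (edgeR, SE 0.10, adjusted p = 0.324).

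Lrrc8a (ENSMUSG00000007476) encodes the obligatory subunit of the volume-regulated anion channel, through which cGAMP passes between cells. It had 71.1, 63.6 and 66.6 CPM in KO females and 58.7, 63.8 and 65.2 CPM in KO males, against 70.3 and 55.3 CPM in WT females and 64.6, 62.6 and 72.8 CPM in WT males. The fold change was -0.0083 on the log2 scale (edgeR, SE 0.08, adjusted p = 0.970). Its level is uncertain, because 66.2% of its exon bases (2853 of 4308) are shared with Gm28035 on the same strand in the older GENCODE annotation, and the treatment of such reads is not given in the sources used here. Among the 5 channel subunits Lrrc8a made up 47.7% ± 3.3 of the summed TPM in KO (SD, n = 6) and 47.4% ± 3.2 in WT (SD, n = 5). Lrrc8c followed with 24.8% in KO and 27.8% in WT, and Lrrc8e was the smallest with 2.11% in KO and 2.48% in WT.

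Abcc1 (ENSMUSG00000023088) encodes the multidrug transporter MRP1, which exports cGAMP. It had 238, 222 and 247 CPM in KO females and 216, 214 and 208 CPM in KO males, against 245 and 387 CPM in WT females and 239, 222 and 234 CPM in WT males. WT female 2 was the highest library, and the other 10 lay between 208 and 247 CPM. The fold change was -0.26 on the log2 scale (edgeR, SE 0.11, adjusted p = 0.265), and without WT female 2 it was -0.10 (adjusted p = 0.372).

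**Figure D3:**
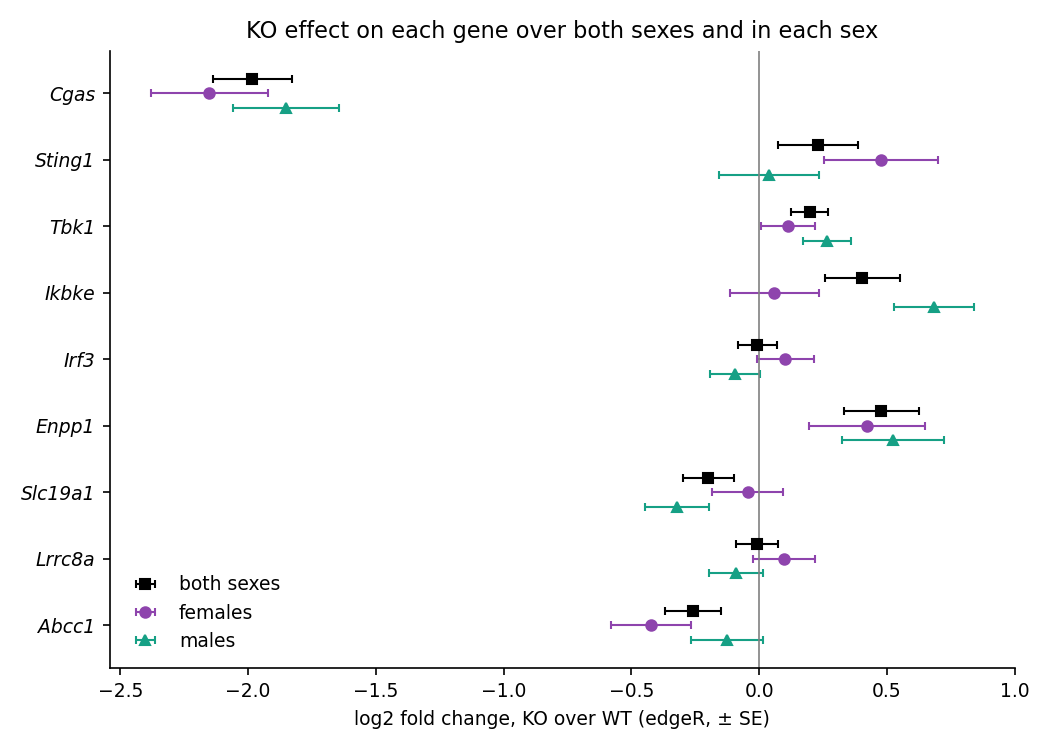
Fitted log2 fold changes of KO against WT for the 9 genes, over both sexes, in males and in females, with bars of 1 SE. Cgas lies at -1.98 over both sexes, and the other 8 genes lie between -0.26 and 0.48 over both sexes. Within a sex, Ikbke reaches 0.68 in males and Abcc1 -0.42 in females.

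The sexes were then read apart, with all 11 libraries sharing 1 estimate of the spread. In males, 1 of the 9 genes was called by edgeR, against 1.22% of 22960 entries. This gene was Cgas, with a log2 fold change of -1.85 and an SE of 0.21 (adjusted p = 0.0307). KO and WT males did not overlap for 6 of the 9 genes, with Tbk1, Ikbke and Enpp1 higher and Cgas, Slc19a1 and Abcc1 lower in every KO male, where 31.4% of 22298 entries showed no overlap in either direction and 17.3% lay higher in every KO male. Ikbke came nearest to a further call: it averaged 55.4 ± 8.9 CPM in KO males and 34.5 ± 7.5 CPM in WT males (SD, n = 3 each), a fold change of 0.68 on the log2 scale (edgeR, SE 0.16, adjusted p = 0.0543). Tbk1 (0.26, adjusted p = 0.137), Enpp1 (0.52, adjusted p = 0.161) and Slc19a1 (-0.32, adjusted p = 0.164) did not pass in the same edgeR fit. Ikbke in males was called under 7 of 19 alternatives, among them DESeq2 (adjusted p = 0.00352), limma-voom (0.56, adjusted p = 0.0135) and edgeR without a low-count filter (adjusted p = 0.0234). It was also called by edgeR without KO male 3, WT female 1, WT female 2 or WT male 2. In males limma-voom called Tbk1 (adjusted p = 0.0461) and Enpp1 (adjusted p = 0.0281) too. Calls over all entries in males were not counted for DESeq2 or limma-voom. Over both sexes they called 521 and 2779 entries. In edgeR the male fold change of Enpp1 was 0.52 without WT female 1 and 0.54 without WT female 2, fits that each leave a lone WT female. With the leukocyte covariate the male fold changes were 0.55 for Ikbke (edgeR adjusted p = 0.291), 0.14 for Tbk1 and 0.06 for Enpp1.

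In females, edgeR gave Cgas a log2 fold change of -2.15 with an SE of 0.23 (adjusted p = 0.0417), and it was the only entry called of 22960 (0.00436%). A positive fold change was found for 6 of the 9 genes and 53.8% of entries, and an unadjusted p under 0.05 for 2 of the 9 (Cgas and Abcc1) and 6.63% of entries. KO and WT females did not overlap for 4 of the 9 genes (Cgas lower, and Sting1, Tbk1 and Ikbke higher), against 19.7% of entries. The Ikbke fold change in females was 0.06 (adjusted p = 0.911), and that of Sting1 was 0.48 (SE 0.22, adjusted p = 0.671). The female values of Sting1 and Abcc1 turned on which WT female was used. Without WT female 1 Sting1 stood at 1.08 (edgeR adjusted p = 0.0018) and Abcc1 at -0.72 (adjusted p = 0.0037), and without WT female 2 they stood at 0.038 and -0.063, both uncalled. The calls of Cgas within a sex were less steady than its size: its adjusted p in males ran up to 0.206 when single libraries were left out, and in females up to 0.376, with values of -2.04 to -1.70 and -2.38 to -1.89 on the log2 scale.

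The difference of the KO effect between males and females was tested itself. None of the 9 genes was called by edgeR, DESeq2 or limma-voom, where edgeR called 0% of 22960 entries. An unadjusted edgeR p under 0.05 was reached by 1 of the 9 genes and 12.9% of entries. That gene was Ikbke, with a difference of 0.62 on the log2 scale (edgeR, SE 0.23, adjusted p = 0.331). Without WT female 1, which leaves WT female 2 as the lone WT female and assumes that it varies like the other groups, Sting1 had a difference of -1.05 (adjusted p = 0.00637) and Abcc1 one of 0.59 (adjusted p = 0.0210).

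Between males and females of both genotypes, edgeR called none of the 9 genes, where 4.82% of entries were called. An unadjusted p under 0.05 was reached by 3 of the 9 genes and 27.8% of entries: Tbk1 was 0.18 higher in males on the log2 scale (adjusted p = 0.141), Enpp1 0.36 higher (adjusted p = 0.136) and Abcc1 stood at -0.28 (adjusted p = 0.128). DESeq2 called 0 and limma-voom 4 of the 9, and the calls of these methods over all entries were not counted between the sexes. The library names of the sexes differ in style, so sex and a difference of preparation cannot be told apart.

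**Figure D4:**
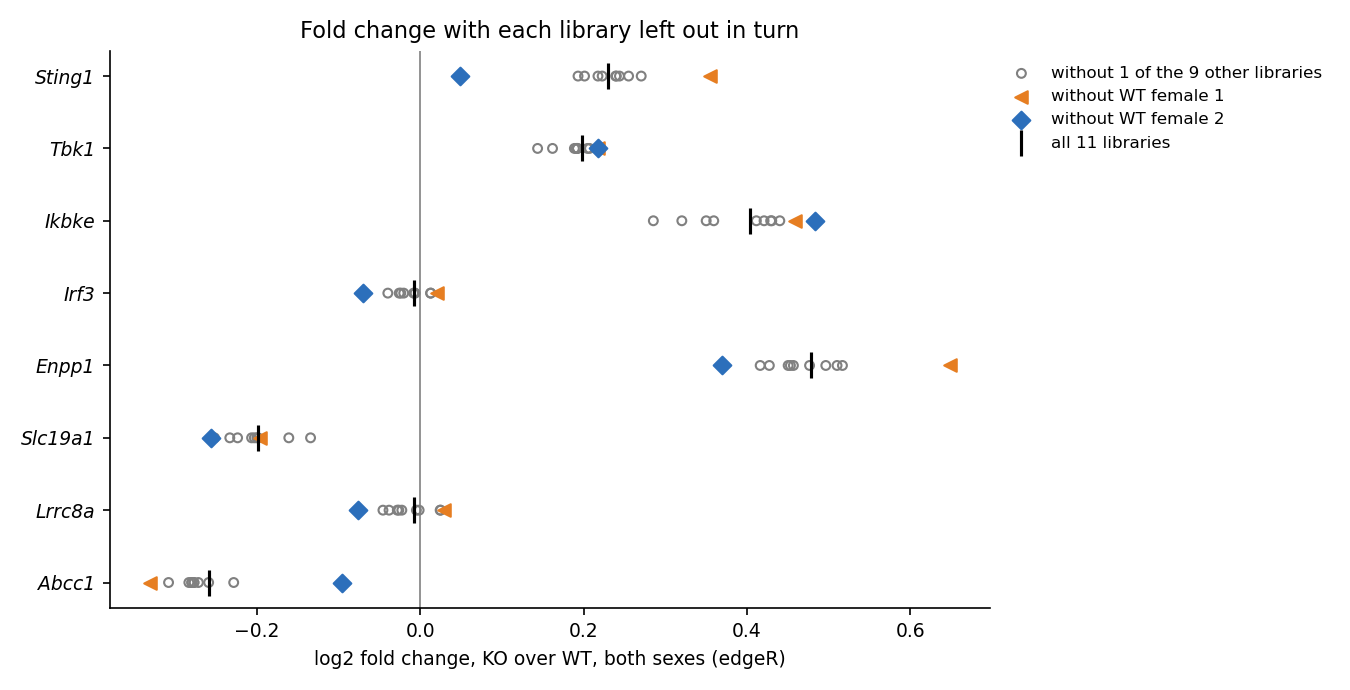
Log2 fold change of KO against WT over both sexes for the 8 genes other than Cgas, with all 11 libraries (bar) and with each library left out in turn (other marks). Without WT female 2, Sting1 moves to 0.05, Abcc1 to -0.10 and Enpp1 to 0.37. Without WT female 1, Enpp1 moves to 0.65.

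Levels were compared between genes per length, in TPM from union exon lengths. In KO libraries Lrrc8a averaged 54.1, Abcc1 53.4 and Sting1 51.5 TPM, and these 3 neighbours did not differ beyond their spread. Tbk1 followed at 37.9, Irf3 at 24.1, Ikbke at 18.8, Enpp1 at 13.5, Slc19a1 at 9.31 and Cgas at 1.80 TPM. In WT libraries Abcc1 averaged 64.1, Lrrc8a 55.4, Sting1 46.3, Tbk1 34.0, Irf3 24.7, Ikbke 14.5, Slc19a1 10.6, Enpp1 10.2 and Cgas 7.29 TPM. Among WT neighbours in this order, Abcc1 and Lrrc8a, Lrrc8a and Sting1, Sting1 and Tbk1, and Slc19a1 and Enpp1 did not differ beyond their spread. Cgas had the lowest mean of the 9 in both genotypes, and in WT its libraries overlapped those of Enpp1 (5.34 to 8.79 TPM for Cgas, 5.98 to 12.7 TPM for Enpp1). The lowest library for Enpp1 and for Sting1 was WT female 2, at 17.6 and 18.3 CPM. The other 10 libraries had at least 26.7 and 36.8 CPM, so the WT spread of these genes rests much on that library. With the longest transcript as length Abcc1 came first in KO as well, at 94.2 TPM in KO and 113 TPM in WT.

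**Figure D5:**
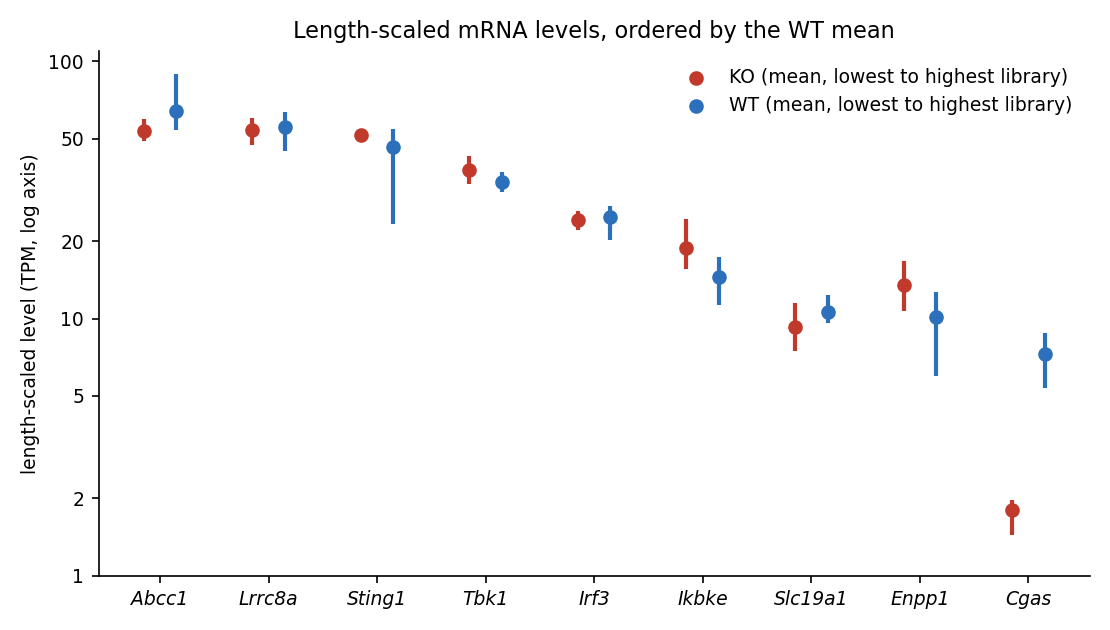
Level per length of the 9 genes in TPM on a log axis, KO in red left of WT in blue, with points for means and lines from the lowest to the highest library. Lrrc8a, Abcc1 and Sting1 average 51.5 to 54.1 TPM in KO, and Cgas has the lowest mean at 1.80 TPM in KO and 7.29 TPM in WT.

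Genes whose pattern over the 11 libraries was most like each of the 9 were found by the root mean square difference of standardised log2 CPM among 20457 named genes, where 0 is identical. For Enpp1 these were Akna (0.130) and Lmbrd2 (0.141), and for Ikbke Dram2 (0.164) and Ssh3 (0.191). Tbk1 was most like Mfsd14b (0.197) and Tank (0.218), Sting1 most like Zbtb45 (0.180) and Bckdk (0.182), and Abcc1 most like Gm26724 (0.162) and Socs7 (0.183). Slc19a1 was nearest to Npnt (0.168) and Nipal1 (0.266). Cgas had no gene as close, with Mrps30 at 0.390 and Exosc1 at 0.395, and neither did Irf3 (Chn2 at 0.323) or Lrrc8a (Spats2 at 0.307). Zbtb45 and Bckdk share with Sting1 their lowest value in WT female 2, and Gm26724 and Socs7 share with Abcc1 their highest value in that library. Being picked for likeness over these same libraries, they were bound to share such extremes. That library was the lowest for 28.8% and the highest for 25.4% of all entries.

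Of 75 other genes of the pathway, in 5 lists by role, 74 were tested over both sexes and edgeR called none. An unadjusted edgeR p under 0.05 was reached by 19 of the 74 and by 17.2% of all entries. DESeq2 called 3 and limma-voom 14, where over all entries they called 521 and 2779. A positive fold change was found for 45 of the 74, with a median of 0.05 on the log2 scale, against 48.5% of all entries and a median of -0.0087. In males 2 were called higher and 1 lower, against 0.719% and 0.501% of entries.

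Among 14 regulators of cGAS and of its DNA ligands, 10 had a positive fold change. Those with the smallest p were Trim41, a ubiquitin ligase acting on cGAS (0.21 on the log2 scale), Trim14, which stabilises it (0.56), and the lysosomal nuclease gene Dnase2a (0.41), with edgeR adjusted p from 0.173 to 0.182. Among 12 adaptors and relatives of TBK1, 10 were positive, led by the TBK1-binding adaptors Tbkbp1 (0.31) and Tank (0.21) and by Ikbkb (0.18), which encodes the kinase IKKβ. With the leukocyte covariate Trim41 stood at 0.16, Trim14 at 0.13, Dnase2a at 0.05, Tbkbp1 at 0.29, Tank at 0.05 and Ikbkb at 0.09.

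Among 23 genes of STING movement and turnover, 15 were positive. Insig1, which holds sterol-sensing proteins and a STING ligase partner in the endoplasmic reticulum, had 101 to 156 CPM in KO and 56.4 to 103 CPM in WT. It rose in males, to 143 ± 12 CPM in KO males against 62.8 ± 9.8 CPM in WT males (SD, n = 3 each), by 1.18 on the log2 scale (edgeR, SE 0.14, adjusted p = 0.0307). Npc1, the lysosomal cholesterol transporter, also rose in males, by 0.69 (adjusted p = 0.0478), and its 222 to 345 CPM in KO lay above its 176 to 218 CPM in WT in every library. No overlap in either direction was found for 1.36% of all entries, and Npc1 is named here for its small p over both sexes. Rnf5, a ligase that acts on STING in human cells, had a fold change of 0.33 over both sexes (adjusted p = 0.173). With the leukocyte covariate the male values were 1.07 for Insig1 (edgeR adjusted p = 0.195) and 0.47 for Npc1 (adjusted p = 0.289), and over both sexes Npc1 stood at 0.22 and Rnf5 at 0.16. The male calls were lost in 8 of 19 alternatives for Insig1 and 11 of 19 for Npc1, including without KO female 2, KO male 1, KO male 2, WT male 1 or WT male 3. None of these differences between the sexes was called: the test of the difference gave an adjusted p of 0.307 for Insig1 and 0.329 for Npc1.

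Among 13 other genes of cGAMP transport and breakdown, 6 were positive. The lysosomal transporter Slc46a3 had 10.5 to 17.1 CPM in KO and 4.48 to 11.4 CPM in WT, a fold change of 1.04 on the log2 scale (edgeR, SE 0.23, adjusted p = 0.173). P2rx7, an ATP-gated channel of macrophages among other cells, stood at 0.54. Gja1, the gap junction protein connexin 43, fell in males by 0.73 (adjusted p = 0.0478), with 33.8 ± 0.6 CPM in KO males and 55.9 ± 6.4 CPM in WT males (SD, n = 3 each). Its male call was lost in 11 of 19 alternatives, and with the leukocyte covariate its male value was -0.81 (edgeR adjusted p = 0.281). With that covariate Slc46a3 stood at 0.35 and P2rx7 at 0.019 over both sexes.

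Of 13 genes that IRF3 or interferon act through, 12 were tested and 4 were positive, with a median of -0.05. Ifnar1 (0.25) and Ifnar2 (0.18), the interferon receptor chains, and Oasl1 (-0.64), a translational regulator in mice, had edgeR adjusted p of 0.220, 0.508 and 0.401. With the leukocyte covariate Ifnar1 stood at 0.028, Ifnar2 at 0.18 and Oasl1 at -0.48. Ifnb1, interferon beta, had 0 counts in all 11 libraries, so that its level was not detectable at this depth.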

How the data were processed

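RNA sequencing counts of 11 libraries were used. For each library the authors deposited raw counts, which are whole numbers without normalization, per the file headers and values. The submitters' processing notes name Trim Galore, STAR and the build GRCm39, without versions. The counting program, its strand setting and its treatment of reads with several matches are not given in the sources used here. Symbols, exon lengths and overlaps came from GENCODE vM21 on the older GRCm38 build and were used for no coordinates of the counts. Promoters came from RefSeq tables on GRCm38.p6; none is shown for Sting1 or Abcc1.

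Each table held 56980 genes and 1243 repeat subfamilies, which were fitted together. Differences were tested with edgeR 4.0.16 in R 4.3.3 (TMM scaling, filterByExpr with a minimum count of 10, quasi-likelihood F-test, Benjamini-Hochberg adjustment over all entries tested, threshold 0.05). The additive model of genotype and sex (residual df 8, 22298 entries) gave the contrasts over both sexes and between sexes. The model with 1 mean for each of the 4 groups (residual df 7, 22960 entries) gave the others. Fold changes are KO against WT, or males against females, and an SE is the fold change divided by the square root of F. CPM and TPM were computed here from the deposited counts. P-values measure the spread between animals. No pair of libraries of 1 genotype, within or across the sexes, was identical (chi-square divided by its df 12.0 to 284, where a pair summed to 20 counts or more).

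The text names the 9 genes, the 3 genes with the smallest p over both sexes of each of the 5 other lists, and the 2 genes most like each of the 9. The other Lrrc8 genes, Gm28035, Ifnb1 and the markers named beyond the first 2 of their list were added after their values were seen. The members and lists were chosen with earlier results of these data known. Only the additive edgeR fit over both sexes was tested on simulated data, which held no sex effect and no library like WT female 2. The other fits were not tested in this way. Alternatives were DESeq2 1.42.0, limma 3.58.1 voom with sample weights, other size factors, no low-count filter, Ensembl genes only, no sex term, replicate blocks, a leukocyte score as covariate, each sex alone and each library left out.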

Additional observations from a re-analysis of the deposited data

Results flagged for a closer look

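Of 48 sets of KO or WT libraries looked at, 4 had 1 library far from the others of its genotype; chance alone gives about 1 in 20. Sting1 had 18.3 CPM in WT female 2 and 36.8 to 40.3 CPM in the other WT libraries. Abcc1 had 387 CPM in WT female 2 and 222 to 245 CPM in the other WT libraries. Gja1 had 48.5 CPM in KO female 1 and 33.2 to 34.5 CPM in the other KO libraries. Oasl1 had 1.25 CPM in KO female 1 and 0.489 to 0.665 CPM in the other KO libraries.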

How the results depend on the processing

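The fall of Cgas over both sexes kept its direction in all 20 alternatives run and its call in 18, with -2.10 to -1.85 when single libraries were left out; the leukocyte covariate gave -1.90 and the replicate block within sex, added after seeing the data, gave -1.95, both without a call. Over both sexes 1 of the 9 genes was called, 3 with limma-voom (Cgas, Ikbke and Enpp1), 0 with the leukocyte covariate or the block within sex and 1 to 2 with single libraries left out. In males the count of 1 became 2 with DESeq2 or no filter, 4 with limma-voom, 0 with the leukocyte covariate, the replicate block or each sex alone, and 0 to 3 with libraries left out. In females it became 0 with limma-voom, the leukocyte covariate, the replicate block or each sex alone, and 0 to 4 with libraries left out. For the difference between the sexes it ran from 0 to 2, and between males and females from 0 to 2, with 4 by limma-voom and 1 with the leukocyte covariate. Over all entries 521 were called by DESeq2, 2779 by limma-voom, 3 without a filter, 0 with the leukocyte covariate or the block within sex, and 1 to 1616 with libraries left out, 1616 without WT female 1. Other pathway genes gave 3 calls with DESeq2, 14 with limma-voom and 0 to 9 with libraries left out, 9 without WT female 1. In males Insig1 ran from 1.11 to 1.30, Npc1 from 0.59 to 0.84 and Gja1 from -0.82 to -0.64 with libraries left out, fits added after seeing the data. The causes were not tested.

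Signs turned only for values that had not passed. With the leukocyte covariate Sting1 was -0.053 over both sexes and -0.31 in males, Abcc1 0.11 in males, and in females Tbk1 -0.0050, Ikbke -0.064 and Irf3 -0.012; the sex difference of Enpp1 was -0.0044, and -0.035 with limma-voom. Counting Lrrc8a with Gm28035, added after seeing the data, gave 0.0082. With libraries left out, Lrrc8a ran from -0.077 to 0.029 and Irf3 from -0.070 to 0.020 over both sexes; in females Slc19a1 from -0.16 to 0.063, Irf3 from -0.048 to 0.26 and Lrrc8a from -0.076 to 0.28; the sex difference of Enpp1 from -0.39 to 0.49, of Sting1 from -1.05 to 0.016 and of Abcc1 from -0.049 to 0.59.

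Deviations of same-numbered libraries from their group means had correlations of -0.145 to 0.0734. With 2 to 3 libraries per group such deviations constrain each other, so they cannot show whether the numbers pair animals. With the replicate block Cgas was -1.94 over both sexes (edgeR adjusted p = 0.00863), and with the block within sex -1.95 (edgeR adjusted p = 0.0715). The 2 to 3 animals per sex and genotype and the 52 to 111 Cgas reads in KO libraries limit the precision.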
